A study of Mus musculus with 10 samples.

Results

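Mitochondrial ribosomal proteins were followed through their transcripts in mouse cortex as all genes whose symbol is Mrpl or Mrps followed by a number and at most 1 letter. The rule found 78 genes among 24972 listed, 49 named for the large subunit (Mrpl) and 29 for the small subunit (Mrps). All 78 were among the 14378 genes with enough counts to be tested. Stranded libraries of total RNA depleted of ribosomal RNA represented the cortices of 10 male mice (C57BL/6, age 2.5 months), of which 5 were Atad3 nKO and 5 were control littermates. All animals had been perfused with ice-cold PBS before dissection, and each library was 1 animal. What nKO stands for is not written out in the labels, and no driver line or targeted exon is named there, so the cells that carry the deletion are not defined by them. The bulk cortex also holds cells of other types, and fewer cells of a type cannot be told apart from less RNA per cell.

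The mitochondrial ribosome translates the few mRNAs that mitochondria encode, which specify core subunits of the respiratory chain complexes and of ATP synthase. Its ribosomal RNAs are transcribed inside the organelle, whereas its proteins are encoded in the nucleus, made in the cytosol and imported. The small subunit reads the mRNA, and the large subunit forms the peptide bond and delivers the nascent chain at the inner membrane. ATAD3A is an ATPase anchored in that membrane, and the comparison asks how the transcripts of this assembly compare in cortex between the genotypes.

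Promoters of these genes were read first, because they are a feature of the family that the choice by name did not use. Of the 78 genes, 69 had a promoter window in RefSeq (GRCm38.p6, 250 bases before to 50 after the start of the gene). Searched on both strands, the core of the ETS motif, CCGGAAG, lay in the windows of 26 of 69 genes (37.7%), against 18.4% of 11196 tested genes with a window. It was found in 15 of 43 large-subunit genes (34.9%) and 11 of 26 small-subunit genes (42.3%). The NRF1 core GCGCATGC lay in 8 of 69 (11.6%; 7 large and 1 small) against 5.73%, and the YY1 core AAGATGG in 13 (18.8%) against 8.06%. CCAAT was present in 39.1%, against 42.7% of tested genes, and 17 genes had none of the 4 motifs. None of these motifs contains another. ETS factors, NRF1 and YY1 are transcription factors known for binding promoters of nuclear genes for mitochondrial proteins. A match here is a match of letters, not a measured binding site.

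The windows below belong to Mrps21, the most abundant of the transcripts per length, Mrpl17, the least abundant, and Mrps23 and Mrpl12, the small- and large-subunit genes with the smallest p for the genotype difference. Capitals mark motif matches and the sequences are given 5′ to 3′ on the strand of the gene. Mrps21 lies on the minus strand (chr3:95871465-95871764, GRCm38.p6), Mrpl17 on the minus strand (chr7:105811038-105811337), Mrps23 on the plus strand (chr11:88204138-88204437) and Mrpl12 on the plus strand (chr11:120484387-120484686).
Mrps21: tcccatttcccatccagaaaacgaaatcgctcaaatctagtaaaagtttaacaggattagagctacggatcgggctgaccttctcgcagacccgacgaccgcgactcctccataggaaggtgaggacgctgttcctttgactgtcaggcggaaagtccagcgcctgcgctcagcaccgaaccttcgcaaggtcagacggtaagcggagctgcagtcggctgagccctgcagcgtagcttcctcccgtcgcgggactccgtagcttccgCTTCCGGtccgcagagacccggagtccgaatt
Mrpl17: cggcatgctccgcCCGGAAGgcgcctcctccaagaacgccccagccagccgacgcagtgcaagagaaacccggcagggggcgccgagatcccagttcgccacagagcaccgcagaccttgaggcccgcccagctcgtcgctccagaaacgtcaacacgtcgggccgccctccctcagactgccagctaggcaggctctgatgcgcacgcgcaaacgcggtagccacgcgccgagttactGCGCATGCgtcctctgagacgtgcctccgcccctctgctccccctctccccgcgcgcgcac
Mrps23: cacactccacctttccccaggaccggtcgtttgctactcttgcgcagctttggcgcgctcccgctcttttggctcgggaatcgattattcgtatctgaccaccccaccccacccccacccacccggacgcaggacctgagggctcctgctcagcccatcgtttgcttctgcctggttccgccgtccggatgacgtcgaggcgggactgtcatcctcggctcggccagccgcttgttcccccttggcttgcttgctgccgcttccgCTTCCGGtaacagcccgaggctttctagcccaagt
Mrpl12: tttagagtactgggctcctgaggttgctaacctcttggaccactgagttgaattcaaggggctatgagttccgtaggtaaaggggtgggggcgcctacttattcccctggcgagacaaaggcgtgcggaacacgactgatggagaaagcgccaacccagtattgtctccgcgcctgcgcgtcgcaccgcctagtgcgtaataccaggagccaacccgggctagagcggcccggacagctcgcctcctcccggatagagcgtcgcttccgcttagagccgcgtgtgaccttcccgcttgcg
In Mrps21 and Mrps23 the ETS core is read on the opposite strand (CTTCCGG) and begins 19 and 16 bases after the start. In Mrpl17 the ETS core begins at position -237 and the NRF1 core at position -11, counted from the start of the gene. The window of Mrpl12 holds none of the 4 motifs. Members with an ETS core had a median control level of 74.4 TPM, against 49.2 TPM for the 43 without one. TPM gives the abundance of a transcript relative to all others after division by its length. The median log2 fold change between genotypes, nKO over control, was -0.072 in the former and -0.075 in the latter. The sets were not matched for transcript length, and over the 78 members TPM fell with length (Spearman's rho -0.69).

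A shared promoter region with a neighbour was also common. A protein-coding gene transcribed away from the member started within 1000 bases upstream of 18 of the 78 (23.1%), against 9.38% of 13642 tested protein-coding genes (GENCODE M21 on GRCm38). Of 17 such partners that were tested, 13 were lower in nKO, with a median log2 fold change of -0.096. Over all tested genes 52.2% were lower without length correction, with a median of -0.0078. The transcript lengths of the partners were not taken into account, and a cause of their direction was not tested. Exons of 28 members overlapped a gene on the opposite strand and those of 8 overlapped one on the same strand. Mrpl46 and Mrps11 overlap each other on opposite strands. The sources used here do not say whether the counting used the strand, so values of such pairs are less certain.

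In control cortex the large-subunit transcripts had a median level of 55.5 TPM and ran from 9.08 to 167 TPM, an 18.4-fold range. The small-subunit transcripts had a median of 50.3 TPM and ran from 14 to 213 TPM, a 15.2-fold range. Across all 14378 tested genes the median was 7.84 TPM. The transcripts were thus not at equal levels.

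The highest level was that of Mrps21, a small protein of the small subunit with a bacterial counterpart, at 214.5, 213.5, 224.9, 203.3 and 210.1 TPM in the 5 controls. It was at 219.1, 208.7, 212.9, 176.2 and 226.3 TPM in the 5 nKO animals, so the groups overlapped and nKO 4 was the lowest of the 10. Next in order came Mrpl42 (167 ± 18.7 TPM, SD, n = 5), Mrps33 (166 ± 22.5), Mrpl30 (164.9 ± 14.01) and Mrpl33 (148 ± 19.4), neighbours that did not differ beyond their spread. Mrps26, a small-subunit protein found in mitochondria only, followed at 129 ± 18.2 TPM.

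The lowest levels belonged to genes with long transcripts. Mrpl17, a protein near the exit of the tunnel for the nascent chain, was at 9.08 ± 0.490 TPM in controls with a transcript of 6712 bases. Mrpl15 (13.9 ± 1.59 TPM), Mrps25 (14.04 ± 0.807 TPM) and Mrpl19 (15.5 ± 0.682 TPM) stood next, with mean transcript lengths of 4030, 6065 and 5000 bases, and Mrpl15 and Mrps25 did not differ beyond their spread. In the small subunit Mrps27, a protein with pentatricopeptide repeats, was at 29.5 ± 2.42 TPM and Mrps28 at 30.0 ± 6.36 TPM. Over the 78 members, level in TPM and transcript length had a Spearman's rho of -0.69 (-0.727 over large, -0.577 over small), against -0.07 over all tested genes. TPM divides by length, so the measures share a term. The order of mean TPM was nearly the same in nKO as in control (Spearman's rho 0.979 over 78 genes, whose values share the libraries). The largest shift was that of Mrpl12, from rank 15 to rank 42.

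**Figure D1:**
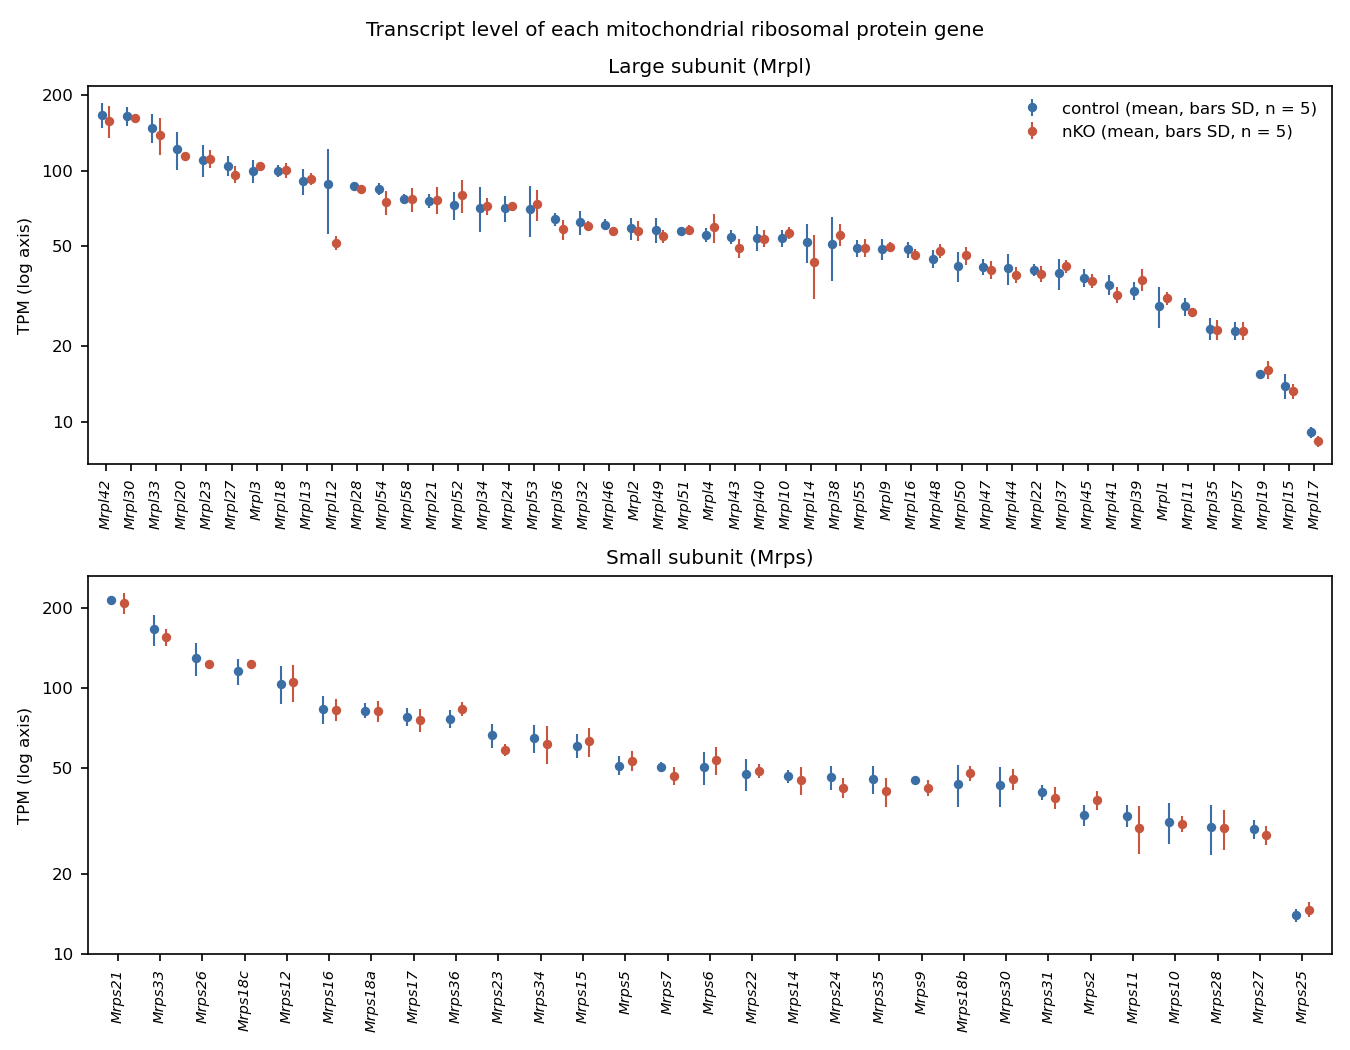
Level of each mitochondrial ribosomal protein transcript in TPM (vertical log axis), large subunit above and small subunit below, ordered by the control mean. Points are means of 5 animals and bars are SD. The controls run from Mrps21 at 213 TPM to Mrpl17 at 9.08 TPM, and Mrpl12 is the gene whose nKO point lies farthest below its control point.

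Most members had 1 listed transcript (53 of 78) and 25 had several, at most 8 in Mrps17. For Mrps21 the shorter of its 2 transcripts carried 195 ± 6.45 TPM in controls and 187 ± 18.4 TPM in nKO. For Mrps23, with 6 listed transcripts, a single one carried 63.5 ± 8.39 TPM in controls and 54.5 ± 3.69 TPM in nKO (SD, n = 5 each). For Mrps12 the division among its 4 transcripts was unstable. One of them ranged from 3.90 to 96.0 TPM among the 5 controls, and only the gene total is used below.

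The genotype label was checked on Atad3a itself. It was at 23.7 ± 1.87 CPM (SD, n = 5) in controls and fell to 11.5 ± 1.97 CPM in nKO, with no overlap (22.2 to 26.6 and 8.95 to 14.4). CPM expresses an estimated count relative to the total of its library, after the TMM scaling of edgeR. The log2 fold change was -1.04 (SE 0.121, adjusted p = 0.00634, edgeR). The libraries held 14812639 to 24161361 estimated counts and a member had between 59 and 2025 counts in a library, with a median of 352. Lists of cell type markers gave no call. Their summed levels overlapped between the groups, at 593 to 881 CPM in control against 672 to 818 in nKO for excitatory neurons and 922 to 1130 against 916 to 1060 for astrocytes. All 4 astrocyte markers, 3 of 4 of microglia and 3 of 5 of inhibitory neurons were lower in nKO. Excitatory neurons had 2 of 5 lower, oligodendrocytes 2 of 4 and endothelium 1 of 3. Of the tested markers of striatum 2 of 2 were lower, and of choroid plexus 0 of 1. None was past 5%. Ttr, Folr1, Drd2, Hbb-bs and Hba-a1 were not tested, which left no tested marker of red blood cells. The running numbers in the labels are lower for every control than for every nKO animal, so running order and genotype cannot be told apart.

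Compared between nKO and control, no mitochondrial ribosomal protein transcript passed a false discovery rate of 5%. The count was 0 of 49 for the large subunit and 0 of 29 for the small (edgeR quasi-likelihood F test, Benjamini-Hochberg adjustment over 14378 genes). Of all tested genes 0.0139% passed, 2 of 14378, and the smallest adjusted p of a member was 0.82. DESeq2 also called 0 members, where 0.0348% of its tested genes passed. At an unadjusted p under 0.05, 1 large-subunit gene (Mrpl12) and 1 small-subunit gene (Mrps23) were lower and 0 were higher. The share of all tested genes was 2.29% for lower and 3.36% for higher. The median SE of a member was 0.101 on the log2 scale, and 71 of 78 had a 95% interval within a 1.5-fold change in either direction.

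The members nevertheless leaned to one side in CPM. For the large subunit 40 of 49 log2 fold changes were below 0 (81.6%), with a median of -0.0665. For the small subunit 20 of 29 were below 0 (69.0%), with a median of -0.0763. Over all tested genes 52.2% were below 0 and the median was -0.0078. Among fits that left out 1 library, the small-subunit median was -0.0449 without control 1 and -0.1219 without nKO 3, over 1.5 times from its value with all 10, and 19 to 22 of 29 were below 0. For the large subunit the median then ran from -0.0851 to -0.0548 and the count from 32 to 42 of 49. Transcripts of the large subunit took 0.118% ± 0.0021 (SD, n = 5) of all counts in controls and 0.112% ± 0.0034 in nKO. Those of the small subunit took 0.0606% ± 0.0019 and 0.0572% ± 0.0022.

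**Figure D2:**
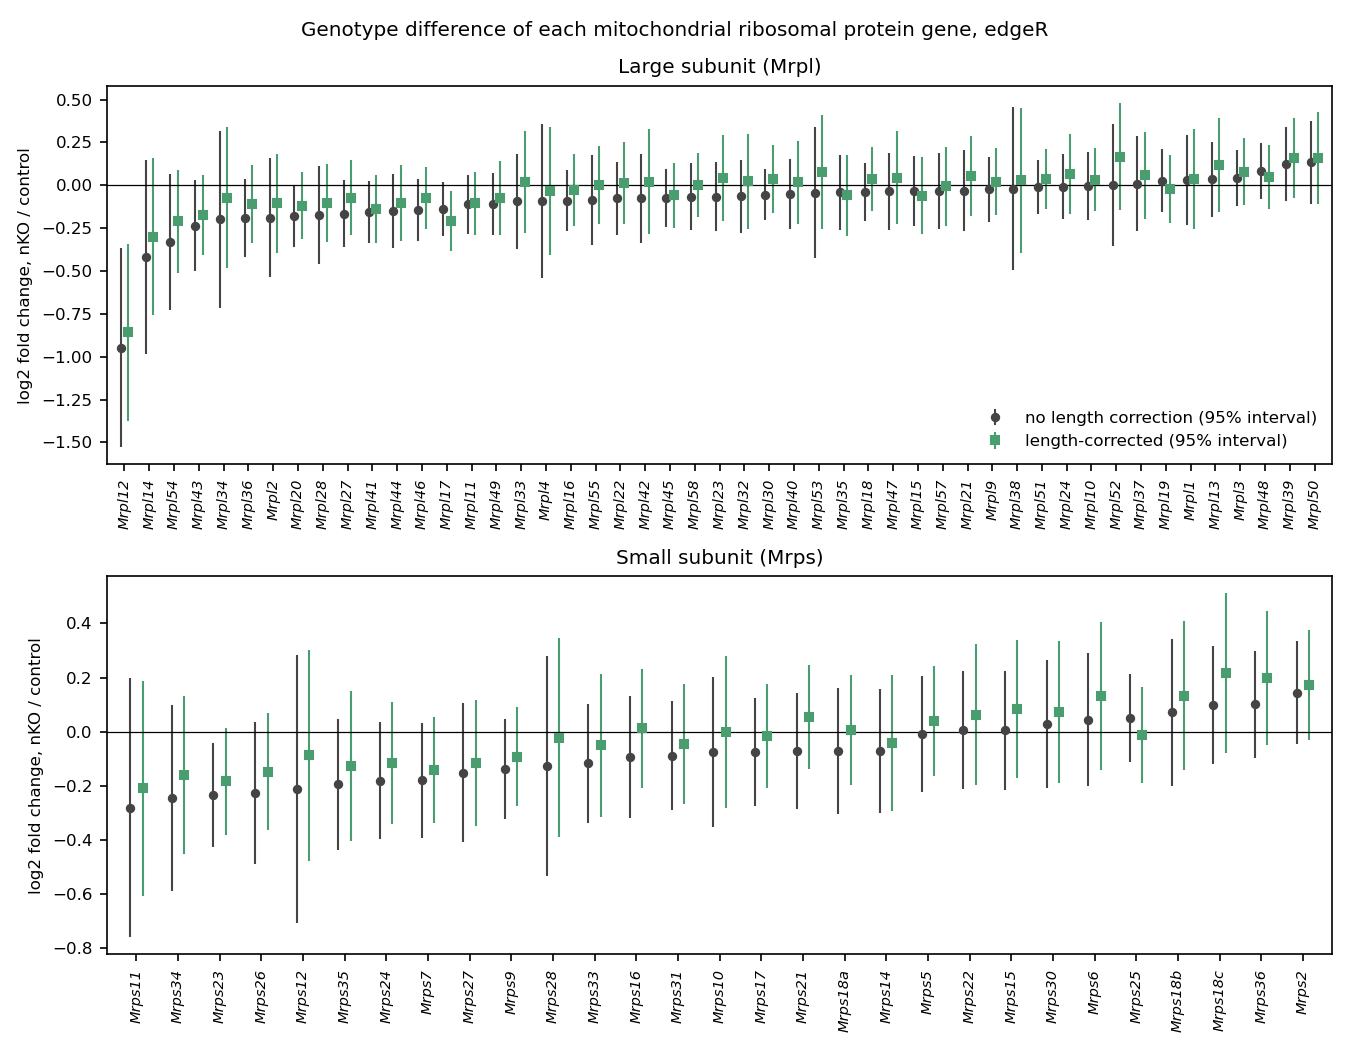
Log2 fold change of each gene (nKO over control) without length correction (dark circles) and with it (green squares), with 95% intervals from edgeR, large subunit above and small below. Without correction the intervals of Mrpl12 and Mrps23 lie wholly below 0 (-1.53 to -0.37 and -0.43 to -0.04), those of the other genes include 0, and most squares lie above their circles.

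Transcript length was taken into account next, because these transcripts are short. Their median length was 1060 bases (1065 for large, 1046 for small), against 2994 bases for all tested genes. In this series short transcripts in general were lower in nKO. The shortest decile of tested genes, 118 to 1216 bases, had a median log2 fold change of -0.0834 with 70.9% below 0. The longest decile, from 6382 bases, had 0.0636 with 25.9% below 0. Of the members, 46 lay in the shortest decile, and 39 of these were below 0 with a median of -0.0802. The 14 in the next decile (1216 to 1703 bases) had a median of -0.0155, where all genes of that decile had -0.0617. Spearman's rho of log2 fold change with length was 0.301 across all tested genes and 0.232 across the 78 members (0.328 large, 0.07 small). Genes are not independent replicates, and these values are descriptions.

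With a smooth trend on length removed from each library (a natural spline fitted over all tested genes), the median of the large subunit was near 0 and that of the small near the median of all tested genes. In the large subunit 23 genes were lower and 26 higher, and the median log2 fold change was 0.0026. In the small subunit 17 were lower and 12 higher, and the median was -0.0159. All tested genes then had 54.4% lower and a median of -0.0139. No member passed 5% (0.0139% of all genes did). At an unadjusted p under 0.05, 2 large-subunit genes were lower, Mrpl12 and Mrpl17, and 0 small-subunit genes, against 2% of all tested genes. No member was higher at that level, against 2.4% of all tested genes. Offsets from the effective lengths that Salmon estimates for each library left the lower medians in place, with 38 of 49 lower and a median of -0.0693 for large, and 20 of 29 and -0.0782 for small. With those offsets 52% of all genes were lower.

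**Figure D3:**
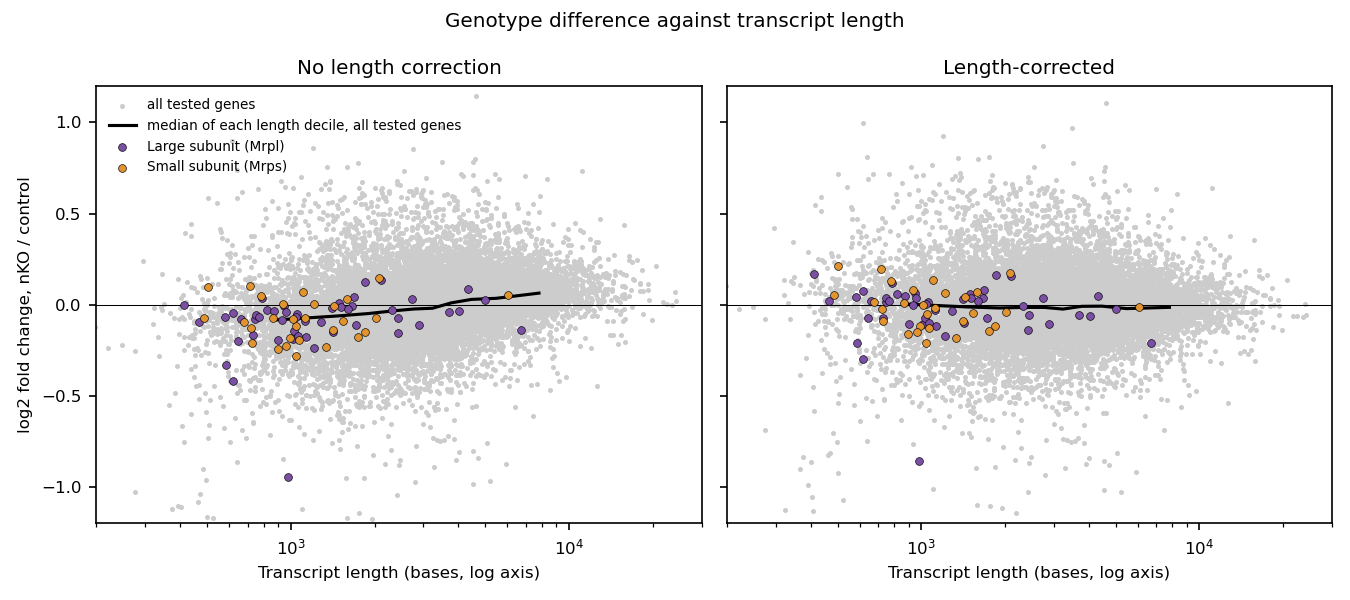
Log2 fold change (nKO over control) against transcript length in bases (log axis), before (left) and after (right) the length trend was removed. Grey points are tested genes within the drawn range, the black line joins the medians of length deciles, and coloured points are the large- and small-subunit genes. On the left the line climbs from -0.0834 to 0.0636 and the members lie around it at its short end.

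The spread between animals shows how much rests on single libraries. As the median over the large-subunit genes of each gene's deviation from its mean log2 CPM, the controls stood at 0.0685, 0.014, 0.0768, 0.0314 and -0.0035. The nKO animals stood at -0.0496, -0.0147, -0.0347, -0.0894 and -0.005. The groups were thus separated only by the narrow gap between control 5 and nKO 5. For the small subunit the controls ran from -0.0001 to 0.1235 and the nKO animals from -0.0843 to 0.0159, which overlapped. After the length trend was removed the large-subunit medians ran from -0.0501 to 0.0914 in controls and from -0.0486 to 0.0548 in nKO, and the small-subunit medians from -0.0978 to 0.1431 and from -0.037 to 0.0823. Control 1 moved from the second highest to the lowest of the 10 for the large subunit, and nKO 4 from the lowest to the second highest.

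**Figure D4:**
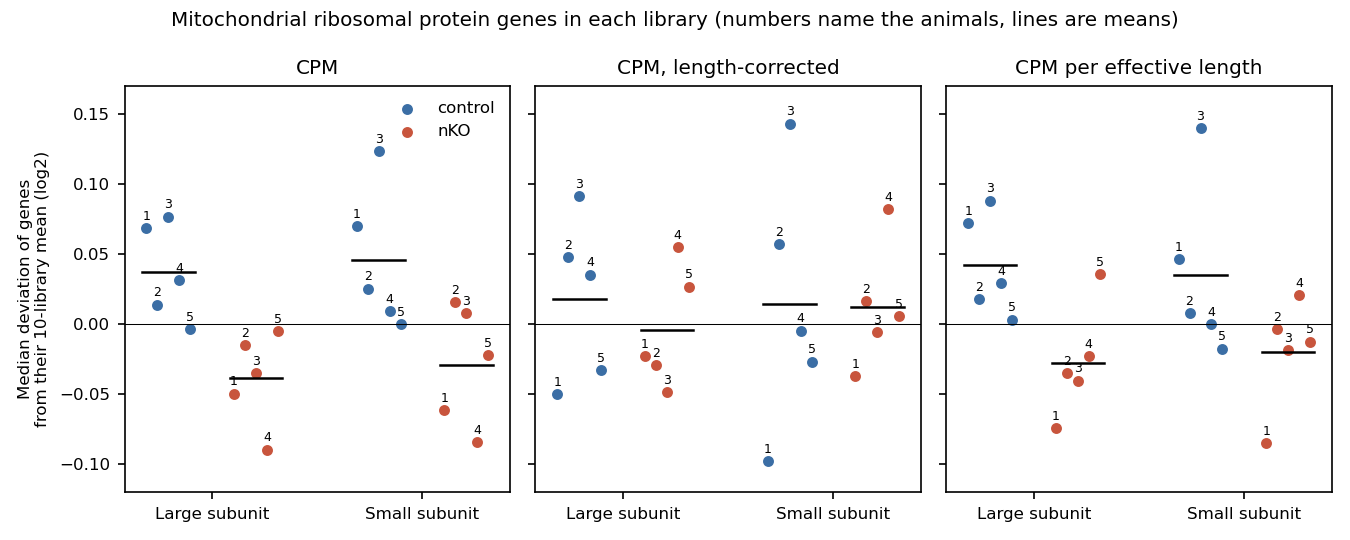
Median deviation of the large- and small-subunit genes from their 10-library mean (vertical axis, log2) in each animal, as CPM, as length-corrected CPM and as CPM per effective length. Numbers name the animals and lines are means of 5. In CPM control 3 is highest (0.0768 large, 0.1235 small) and nKO 4 lowest (-0.0894 and -0.0843), and after length correction the groups overlap.

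These same 2 libraries stood at opposite ends in base composition. Over the 78 members, the deviation of control 1 had a Spearman's rho of 0.681 with GC content and that of nKO 4 one of -0.695, while the others lay between -0.46 and 0.258. The 26 members richest in GC (from 52.6%) were 0.4333 above their mean in control 1 and -0.2152 from it in nKO 4 (medians, log2), and the 26 poorest (up to 48.4%) stood at -0.1193 and 0.0807. Across all tested genes the rho was 0.709 in control 1 and -0.709 in nKO 4. Without these 2 libraries, the CPM fit gave 35 of 49 large-subunit genes lower (median -0.0659) and 19 of 29 small-subunit genes lower (median -0.0421), with 52% of all genes lower. In the length-corrected fit without them, 37 of 49 and 18 of 29 were lower with medians of -0.0496 and -0.0461, where all genes had 57.1% lower and a median of -0.0282. With length and GC trends removed together in all 10 libraries, 30 of 49 and 18 of 29 were lower with medians of -0.0195 and -0.0359, beside 55.7% and -0.0183 for all genes. The part of base composition in the lower CPM was not tested beyond these fits. The length-corrected values of both subunits moved with single libraries too. For the large subunit 31 of 49 were lower without nKO 4 (median -0.0343) and 30 of 49 without control 1 (-0.0258). The small-subunit median was -0.0525 without nKO 4, and it was above 0 without nKO 2 (0.0111), control 3 (0.0044) or nKO 1 (0.0016). None of these fits gave a call.

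Mrpl12 had the largest difference of all members. It is the mitochondrial L7/L12 protein of the stalk that receives translation factors, and it has also been reported to bind the mitochondrial RNA polymerase. The gene (NCBI gene 56282; GRCm38 chromosome 11, 120484637 to 120488754) has 1 listed transcript of 981 bases. Its levels were 39.7, 19.0, 29.7, 13.3 and 15.5 CPM in the controls and 12.2, 14.1, 11.99, 10.2 and 12.3 CPM in nKO. Controls 1, 2, 3 and 5 lay above every nKO animal, while control 4 lay within the nKO range, so the groups overlapped. The controls varied far more (23.4 ± 11.03 CPM, SD, n = 5) than the nKO animals (12.2 ± 1.38 CPM). The log2 fold change was -0.95 (SE 0.266, adjusted p = 0.82, edgeR) and its 95% interval ran from -1.53 to -0.37. The exact two-sided permutation test gave p = 0.0159 (adjusted p = 0.657 over all tested genes). No other member was beyond 1.5-fold, where 1.3% of all tested genes were in either direction and 0.758% were lower. It was -0.86 after length correction and -0.84 with length and GC. Without controls 1 and 3 it was -0.39 (SE 0.134), a value over 1.5 times smaller. These were the highest controls for this gene, so leaving them out lowers the difference by construction.

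Per length, Mrpl12 was at 88.9 ± 33.1 TPM in controls and 51.7 ± 3.41 TPM in nKO (SD, n = 5 each). Its exons overlap Gm16755 on the opposite strand. Mrpl12 was also the only member in a table of scores for 22 genes deposited by the authors, where its scores were 2.91, 1.14, 2.74, -0.01 and 0.323 in controls and -0.355, 0.01, -0.437, -0.257 and -0.1 in nKO. The scale of those scores is not stated, and they come from the same libraries. Controls 1 and 3 were again the highest.

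The other proteins of the stalk and its base were Mrpl10, Mrpl11, Mrpl53 and Mrpl54. All 5 genes of this group, Mrpl12 included, were below 0 in CPM with a median log2 fold change of -0.111. After length correction 3 of 5 were, with a median of -0.105. The log2 fold change of Mrpl54 was -0.33 (SE 0.184) and that of Mrpl10 was -0.005, and none was called.

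Mrpl17 was the only member whose groups did not overlap, a state found in 1.38% of all tested genes (0.675% lower in nKO and 0.702% higher). It stood at 24.04, 23.5, 22.99, 24.2 and 25.3 CPM in controls and at 21.6, 22.5, 21.9, 22.3 and 20.6 CPM in nKO. The difference was small, with a log2 fold change of -0.14 (SE 0.0739, adjusted p = 0.82, edgeR). The exact two-sided permutation test over the 10 libraries gave p = 0.00794, the smallest this design allows (adjusted p = 0.576 over all tested genes). Groups without overlap fix this p in advance, so the test adds nothing to the lack of overlap. Unlike most members Mrpl17 has a long transcript, and length correction moved its log2 fold change to -0.21. No large-subunit gene had an adjusted p under 0.962 in that fit (edgeR).

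Mrpl17 belongs to the proteins around the exit of the nascent chain tunnel, where 7 of 8 were below 0 in CPM (median log2 fold change -0.071) and 3 of 8 after length correction (0.028). In the central protuberance, the crown of the large subunit, 5 of 6 were below 0 (median -0.045), and 2 of 6 after length correction (0.023). Neither group had a call.

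The remaining large-subunit genes with the smallest p were Mrpl20, Mrpl43 and Mrpl41. Mrpl20, whose bacterial counterpart acts early in assembly of the large subunit, was at 37.1, 34.7, 41.3, 38.0 and 31.9 CPM in controls and at 33.6, 32.7, 32.8, 29.5 and 33.1 CPM in nKO. Only control 5 lay inside the nKO range, and the log2 fold change was -0.18 (SE 0.0842, adjusted p = 0.82, edgeR). Mrpl43, a protein found in mitochondria only, had 19.0 ± 3.23 and 16.1 ± 1.64 CPM (SD, n = 5 each) and a log2 fold change of -0.24 (SE 0.122). Mrpl41, another such protein, had 32.5 ± 2.83 and 29.1 ± 1.90 CPM and -0.16 (SE 0.084). In all 3 the ranges overlapped.

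Mrpl14, a protein at the face where the subunits meet, varied most among large-subunit genes after Mrpl12. It was at 10.2, 4.29, 6.31, 6.91 and 5.35 CPM in controls and at 5.31, 4.38, 7.78, 3.16 and 4.03 CPM in nKO. Control 1 was the highest and nKO 4 the lowest. Its log2 fold change of -0.42 (SE 0.262, adjusted p = 0.835, edgeR) was -0.10 without those 2 libraries.

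In the small subunit Mrps23, a protein found in mitochondria only, had the smallest p. It was at 31.5, 29.4, 34.1, 29.0 and 26.1 CPM in controls and at 25.7, 25.4, 26.6, 22.99 and 26.9 CPM in nKO. Control 5 fell inside the nKO range and the other controls lay above it. The log2 fold change was -0.23 (SE 0.0891, adjusted p = 0.82, edgeR) with a 95% interval from -0.43 to -0.04. The exact two-sided permutation test gave p = 0.0238 (adjusted p = 0.657). The log2 fold change was -0.18 after length correction and -0.14 without controls 1 and 3, over 1.5 times smaller. For Mrps23 too these were the highest controls, so leaving them out lowers the difference by construction. In TPM it was at 66.6 ± 6.85 and 58.5 ± 2.92 (SD, n = 5 each).

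For Mrps26 and Mrps35, also found in mitochondria only, the log2 fold changes were -0.23 (SE 0.122) and -0.20 (SE 0.111). Mrps26 was at 32.9, 21.8, 27.9, 24.5 and 23.7 CPM in controls and at 24.7, 23.6, 23.5, 18.3 and 21.7 CPM in nKO, where controls 1 and 3 lay above every nKO animal and nKO 4 was the lowest. Mrps7 and Mrps24, which have bacterial counterparts and bind the small-subunit RNA, were each at a log2 fold change of -0.18 (SE 0.098 and 0.1). Mrps7 was at 30.7 ± 3.09 and 27.1 ± 2.84 CPM, and Mrps24 at 13.4 ± 0.735 and 11.8 ± 1.24 CPM (SD, n = 5 each). All 4 had adjusted p-values between 0.82 and 0.826 (edgeR).

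Mrps12, a protein of the decoding centre, and Mrps11, on the platform of the small subunit, varied most within groups. Mrps12 was at 27, 13.7, 12.9, 11.5 and 11.2 CPM in controls and at 12.02, 14.2, 12.05, 11.6 and 16 CPM in nKO. Control 1 stood alone above the other controls. The log2 fold change of -0.21 (SE 0.228) turned to 0.09 without control 1. Mrps11 was at 13.7, 7.28, 8.28, 8.25 and 8.49 CPM in controls and at 7.68, 9.64, 9.20, 4.29 and 7.04 CPM in nKO, with control 1 highest and nKO 4 lowest. Its log2 fold change of -0.28 (SE 0.221) turned to 0.05 without those 2 libraries. Both genes are rich in GC, at 57.6% and 55.1%.

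**Figure D5:**
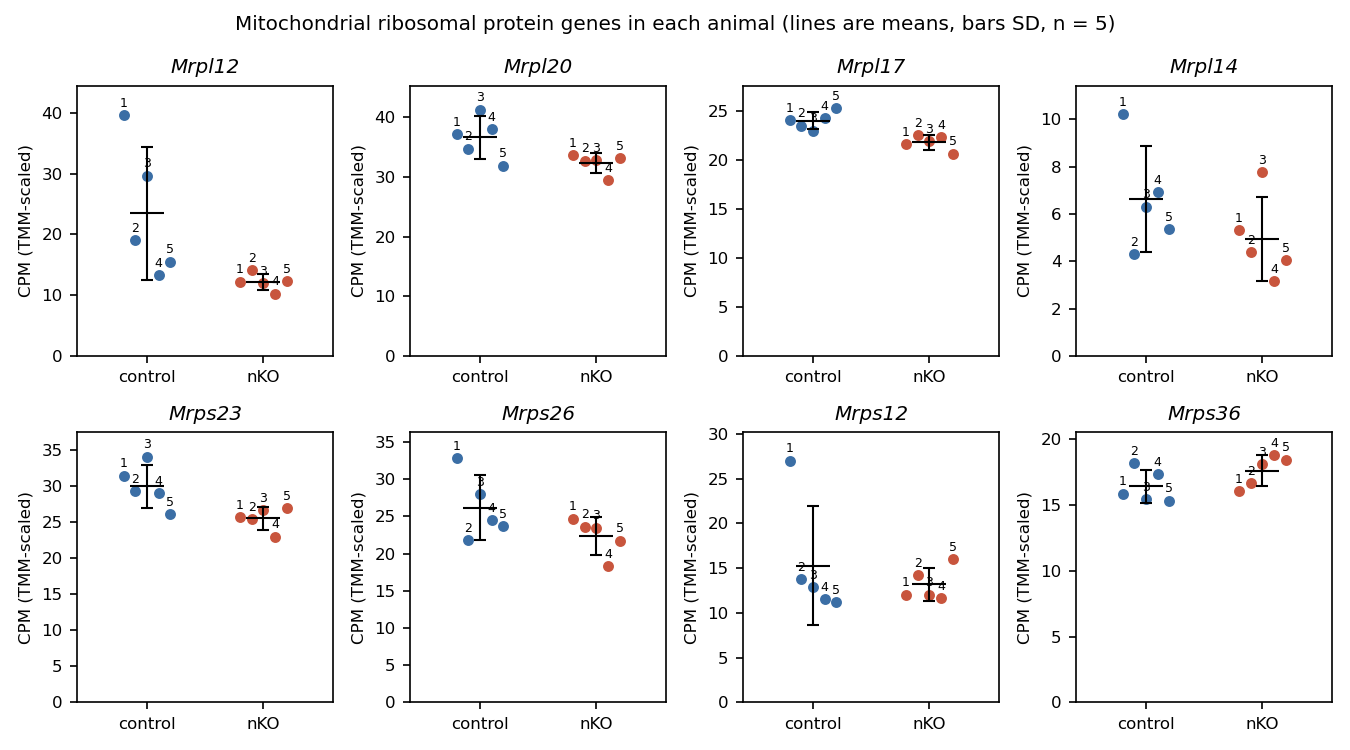
CPM (TMM-scaled) of 8 mitochondrial ribosomal protein genes in each animal, with numbers naming the animals, lines at the means and bars of SD (n = 5). Control 1 stands above the other controls in Mrpl12, Mrpl14, Mrps26 and Mrps12, and the groups are separate only in Mrpl17.

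By evolutionary origin, genes with a bacterial counterpart were below 0 in 25 of 29 cases for the large subunit (median log2 fold change -0.0665) and 12 of 17 for the small (-0.075). After length correction these counts were 15 and 9. Large-subunit proteins found in mitochondria only, with Mrps30 counted among them, were below 0 in 13 of 19 (-0.044), and 8 after length correction. The 9 small-subunit proteins found in mitochondria only were below 0 in 7 cases, with a median of -0.151, and in 8 after length correction, with a median of -0.116. Their 9 log2 fold changes ran from -0.245 to 0.0513, and none was called. Mrpl55, Mrpl58, Mrps18a and Mrps36 were in none of these lists. The groups by origin were not tested as groups.

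For 3 of the genes the name does not give the place of the protein. Mrps30 and Mrps18a are built into the large subunit, and Mrps36 is a component of the alpha-ketoglutarate dehydrogenase complex. Mrps30 had 18.6 ± 2.31 and 18.9 ± 1.89 CPM (log2 fold change 0.03, SE 0.109) and Mrps18a 21.7 ± 1.67 and 20.6 ± 2.83 CPM (-0.07, SE 0.108), SD, n = 5 each. Mrps36 was at 15.9, 18.2, 15.4, 17.3 and 15.3 CPM in controls and at 16.04, 16.7, 18.1, 18.8 and 18.5 CPM in nKO. Its log2 fold change was 0.10 (SE 0.0911), and 0.20 after length correction. With the genes placed by structure, the large subunit had 41 of 51 below 0 (median -0.0665) and the small 19 of 26 (median -0.0909). After length correction these were 23 of 51 (median 0.0069) and 17 of 26 (65.4%, median -0.0321), beside 54.4% and -0.0139 for all tested genes.

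None of the transcripts highest and lowest per length, Mrps26 (-0.23) and Mrpl17 (-0.14) included, had an unadjusted p under 0.05 without length correction (edgeR). The log2 fold changes of Mrpl42, Mrpl30 and Mrpl33 were -0.08 (SE 0.120), -0.06 (SE 0.0692) and -0.09 (SE 0.128), and Mrps21 and Mrps33 of -0.07 (SE 0.0989) and -0.12 (SE 0.102). Mrpl15 and Mrpl19 had -0.03 (SE 0.0953) and 0.03 (SE 0.0855), and Mrps25, Mrps27 and Mrps28 had 0.05 (SE 0.0755), -0.15 (SE 0.119) and -0.13 (SE 0.188). The highest log2 fold changes were those of Mrps2 (0.14, SE 0.0883) and Mrpl50 (0.13, SE 0.112), and these were named after their values were seen. Summed over the subunit in TPM, the large subunit was at 3134 ± 143 in controls and 3056 ± 44.3 in nKO. The small subunit was at 1921 ± 114 and 1899 ± 38.6 TPM (SD, n = 5 each). In both subunits the difference was smaller than the spread of the controls.

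Other genes of mitochondrial translation gave 0 calls as well. Of 5 proteins of the ribosome with other names, all 5 were below 0 in CPM (median log2 fold change -0.111) and 4 after length correction. Among these were Dap3 (-0.11, SE 0.0637), a GTP-binding protein of the small subunit, Gadd45gip1 of the large subunit (-0.26, SE 0.164) and Aurkaip1 of the small (-0.11, SE 0.101). The 15 translation factors and related genes were divided, with 7 lower and 8 higher and a median of 0.0067. The initiation factor Mtif3 had -0.23 (SE 0.106, adjusted p = 0.82, edgeR), the initiation factor Mtif2 had 0.11 (SE 0.0866), and the release factor Mtrf1l had 0.16 (SE 0.145).

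Of 23 genes for assembly of the ribosome and modification of its RNA, 19 were below 0 in CPM, with a median log2 fold change of -0.101. After length correction 20 were (87.0%), with a median of -0.0508, beside 54.4% and -0.0139 for all tested genes. The GTPases Mtg1 and Mtg2, which act late in assembly of the large subunit, had -0.26 (SE 0.118, adjusted p = 0.82, edgeR) and -0.39 (SE 0.198). Eral1, which binds the small-subunit RNA, had -0.18 (SE 0.101). None of these reached 5%.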

How the data were processed

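Per the labels' protocols, RNA was extracted with TRIZOL, treated with DNase and made into stranded, rRNA-depleted libraries. The tools in the submitters' processing notes are bcl2fastq, Salmon and DESeq2, and the build is mm10; versions and annotation are not given in the sources used here. Per the file headers, the authors deposited estimated counts, TPM, lengths and effective lengths per gene and transcript, and a table of scores of unstated scale.

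Estimated counts were rounded, kept by filterByExpr (minimum count 10, minimum total 15) and scaled by TMM. Genotypes were compared over 14378 genes in edgeR 4.0.16 (R 4.3.3) with its robust quasi-likelihood F test, Benjamini-Hochberg adjusted at 5%, and tested on simulated data. Length correction used a natural spline (4 degrees of freedom) of log2 CPM deviations on log2 length per library as offset. Alternatives were DESeq2 1.42.0, other scalings, filters and length corrections, libraries left out, and a GC trend chosen after seeing the data.

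The members and lists were chosen with earlier results of these data known. Per subunit the text names the 5 members with the smallest p, the 3 highest and 3 lowest in control TPM, the 2 most variable, those without overlap or beyond 1.5-fold, and Mrps30, Mrps18a and Mrps36; per other list, the 3 with the smallest p. Mrpl10, Mrpl54, Mrps2, Mrpl50 and the divergent or overlapping pairs were named outside this rule, after their values were seen. Samples were grouped by genotype label. Sequences are RefSeq's (GRCm38.p6).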

Additional observations from a re-analysis of the deposited data

Results flagged for a closer look

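Groups of 5 animals were checked for an animal set far apart from the others of its group, in 52 groups for the CPM of the 26 genes named by rule and in 12 groups for the share of counts and the median deviation of each subunit. Of these 64 groups 7 had such an animal, all of them for single genes. Chance gives about 1 in 20 only for independent groups that were not chosen by their values. Here some genes, Mrps11 and Mrps12 among them, were named for their spread, and all groups share the same libraries. The 7 of 64 can therefore not be read against that rate. Control 1 stood apart in 3 genes: Mrps12 at 27 CPM (other controls 11.2 to 13.7), Mrps11 at 13.71 CPM (7.28 to 8.49) and Mrps7 at 36.06 CPM (28.6 to 30.7). Control 3 stood apart in Mrpl41, at 37.46 CPM (30.6 to 31.8). In nKO, animal 4 stood apart in Mrps21 at 19.18 CPM (others 25.3 to 26.5) and in Mrpl20 at 29.47 CPM (32.7 to 33.6), and animal 3 in Mrps28 at 6.113 CPM (4.15 to 4.55).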

How the results depend on the processing

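No paired analysis was possible because the labels used here give no litter, so shared litters were not taken into account in the tests. The running numbers in the labels go on through both groups, so no number is shared between them. No alternative gave a member past 5%, and the smallest adjusted p of a member in any of them was 0.202 (DESeq2 with the length trend). With the length trend the median log2 fold change of the large subunit went from -0.0665 to 0.0026 and that of the small from -0.0763 to -0.0159, and large-subunit genes below 0 from 40 to 23. In the length-corrected fit without control 1 and nKO 4, those below 0 were 37 and the median was -0.0496. Large-subunit genes at an unadjusted p under 0.05 were 1. They were 2 with library size alone, DESeq2 size factors, the DESeq2 Wald test or a filter of at least 1 CPM in 5 libraries. They were also 2 with the length trend, or without control 1 and nKO 4, and 4 with effective length offsets. Those offsets raised the numbers over all 14378 tested genes too, from 329 to 603 lower and from 483 to 791 higher. Leaving out 1 library gave 1 to 3 large-subunit genes at an unadjusted p under 0.05 and 0 to 4 small-subunit genes (1 with all). It gave 1 to 5 members without overlap (1 with all). The small-subunit count was 0 with the length trend and without either pair of libraries. Members without overlap were 2 without control 1 and nKO 4, and 3 without controls 1 and 3. Smaller groups are separate more often by chance. The shares of all tested genes in the fits with libraries left out are not given here. These counts are therefore not read as a result about the members. Of 320 log2 fold changes of 16 named genes, 308 kept their sign and 12 turned. Mrps11 turned to 0.047 without control 1 and nKO 4. Mrps12 ranged from -0.3046 to 0.0929 with single libraries left out, above 0 without control 1, and was 0.13 without control 1 and nKO 4, and 0.12 without controls 1 and 3. Mrps18a turned to 0.0069 with the length trend, 0.024 without control 1 and nKO 4, and 0.0165 with length and GC trends. Mrps30 ranged from -0.0312 to 0.0936 with single libraries left out, below 0 without control 1 (-0.0049), control 3 (-0.0215) or nKO 4 (-0.0312), and was -0.066 without control 1 and nKO 4 and -0.082 without controls 1 and 3. The cause was not tested. Depth limits the least counted members most, down to 59 counts in a library.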
